A study of Mus musculus with 42 samples.

Results

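Arntl, Npas2, Clock, Cry1 and Nfil3, 5 genes of the circadian clock, were read in aorta and in skeletal muscle of male mice from 7 groups. They were chosen by symbol, as 10 of the 41174 probes and 5 of the 21186 genes of a mouse expression array: 1 probe each for Arntl and Npas2, 4 for Clock, and 2 each for Cry1 and Nfil3. Each group and tissue had 3 arrays, 42 in all, from 3 mice per group by the study's methods.

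Group G was healthy C57 mice and group A was KK/Ay mice with spontaneous diabetes. Group C was KK/Ay mice made a model of diabetic macroangiopathy by feeding fat and giving L-NAME, which blocks the making of nitric oxide, and groups G, A and C received saline by gavage. The other groups were that same model treated with SHENQI compound (B), a herbal formula, with its yangyinyiqi component (D), with its huoxue component (E) or with rosiglitazone (F), an agonist of the nuclear receptor PPARG. Groups A to F thus share the KK/Ay strain, an inbred strain with the yellow allele of the agouti gene that turns obese and diabetic, and were enrolled for high blood glucose. Healthy mice differ from all of them in strain and disease together, and the hour at which tissue was taken is not given in the sources used here, so strain, disease and time of day cannot be told apart for genes whose level follows the hour.

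The mammalian clock is a loop of transcription. BMAL1, the product of Arntl, pairs with CLOCK or with its relative NPAS2, binds E-boxes and switches on the Per and Cry genes, whose products then silence the pair. In a second loop the ROR receptors raise and the REV-ERB receptors (Nr1d1 and Nr1d2) lower transcription of Arntl, Npas2, Clock, Cry1 and Nfil3 through ROR elements. NFIL3, also called E4BP4, represses genes with a D-box, which the activators DBP, TEF and HLF bind as well. In tissues of mice kept under light and dark, Arntl runs close to opposite in phase to Dbp and Per2, so the levels of both arms are read as a mark of the hour.

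A single probe carried every value of Arntl. It is printed because the largest differences rest on these 60 bases, which the array file places at chr7:120456978-120457037 of mm9, plus strand, in transcript NM_007489. The exon was not looked up, since no annotation of that build was used.

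Arntl probe: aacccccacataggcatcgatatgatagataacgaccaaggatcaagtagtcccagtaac

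The control sequences of the genes were read from the RefSeq promoter windows of GRCm38.p6, from 250 bases before to 50 bases after a transcript start, in which all 5 genes were matched (2 windows for Arntl, 3 for Clock and 1 for each of the others). The letters searched on both strands were CACGTG for the E-box, CACGTT for its E-prime variant, TAGGTCA and TGGGTCA for the ROR element, and TTATGTAA and TTACGTAA for the D-box. The first was held by 7.15% of the 32851 windows of this length, CACGTT by 4.68%, TAGGTCA by 2.61%, TGGGTCA by 3.98%, TTATGTAA by 0.938% and TTACGTAA by 0.119%. TAGGTCA was found for Arntl and for Nfil3, the E-box and the E-prime box were found for Cry1, and the windows of Clock and Npas2 held none of these letters. The 3 stretches are shown because they set the genes with a ROR element apart from the gene with E-boxes, with the letters found in capitals and no overlap between them. The one of Arntl lies 31 bases past one of its starts, at chr7:113207530-113207559, plus strand.

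Arntl: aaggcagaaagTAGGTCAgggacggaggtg

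Nfil3: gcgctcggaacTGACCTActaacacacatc

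Cry1: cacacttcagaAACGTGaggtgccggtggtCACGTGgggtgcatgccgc

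The stretch of Nfil3 is chr13:52981033-52981062 on the minus strand, where the ROR letters run opposite to the gene and end just before its start. That of Cry1 is chr10:85185096-85185144, also on the minus strand, from -90 to -42 relative to its start. A match is a string of letters, and binding was not measured in these mice.

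Between 23834 and 30269 of the 41174 probes stood well above background per aorta array, and between 20188 and 26829 per skeletal muscle array. Levels below are log2 normalized intensities, and a difference of 1 on this scale is a doubling. The summed level of 6 skeletal muscle markers was 19.29 to 19.69 on the muscle arrays and 11.37 to 18.51 on the aorta arrays, with all 6 well above background on every aorta array, healthy (12.27 to 16.18) or not. All 6 smooth muscle markers were well above background on every array of both tissues. The aorta arrays also held transcripts of fat: in healthy mice Ucp1, the uncoupling protein of brown fat, was well above background on 3 of 3 aorta arrays (mean 16.30) and on 0 of 3 muscle arrays, whereas the difference of Acta2, smooth muscle actin, was 0.90, aorta minus muscle (limma adjusted p = 0.55). Of the 6 adipocyte markers, 5 were well above background on all healthy aorta arrays and 4 on all healthy muscle arrays (summed 13.04 to 14.71). In muscle of each KK/Ay group all 6 were. The summed smooth muscle markers were 13.06 to 16.70 in healthy aorta and 15.59 to 18.02 in the aorta of the KK/Ay groups, the summed adipocyte markers were 16.84 to 18.91 and 16.68 to 19.07, and the summed blood markers were 15.96 to 17.58 and 17.42 to 18.99. The summed cardiac markers were 11.02 to 14.48 in healthy aorta and 8.87 to 15.78 in the aorta of the KK/Ay groups. The part of all these in the aorta and muscle values was not tested. In tissue, fewer cells of a type and less RNA per cell cannot be told apart. The arrays of 3 of the 11 slides (slides 1, 3 and 11) were taken as a batch or left out in some alternatives. They held 2 of the 3 healthy arrays of each tissue. Whether these slides differ from the others is not reported here.

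Arntl showed the largest difference between healthy and diabetic mice among the 4 members tested. On the healthy aorta arrays its level was 9.05, 7.82 and 9.49 (mean 8.79 ± 0.87, SD, n = 3), and on the diabetic aorta arrays it was 6.80, 6.68 and 6.81. In skeletal muscle it was 9.40, 10.47 and 10.10 in healthy mice (mean 9.99 ± 0.54, SD, n = 3) and 8.01, 8.58 and 8.29 in diabetic mice. No diabetic array reached the lowest healthy array of its tissue and the second healthy aorta array, at 7.82, was the lowest of its group.

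**Figure D1:**
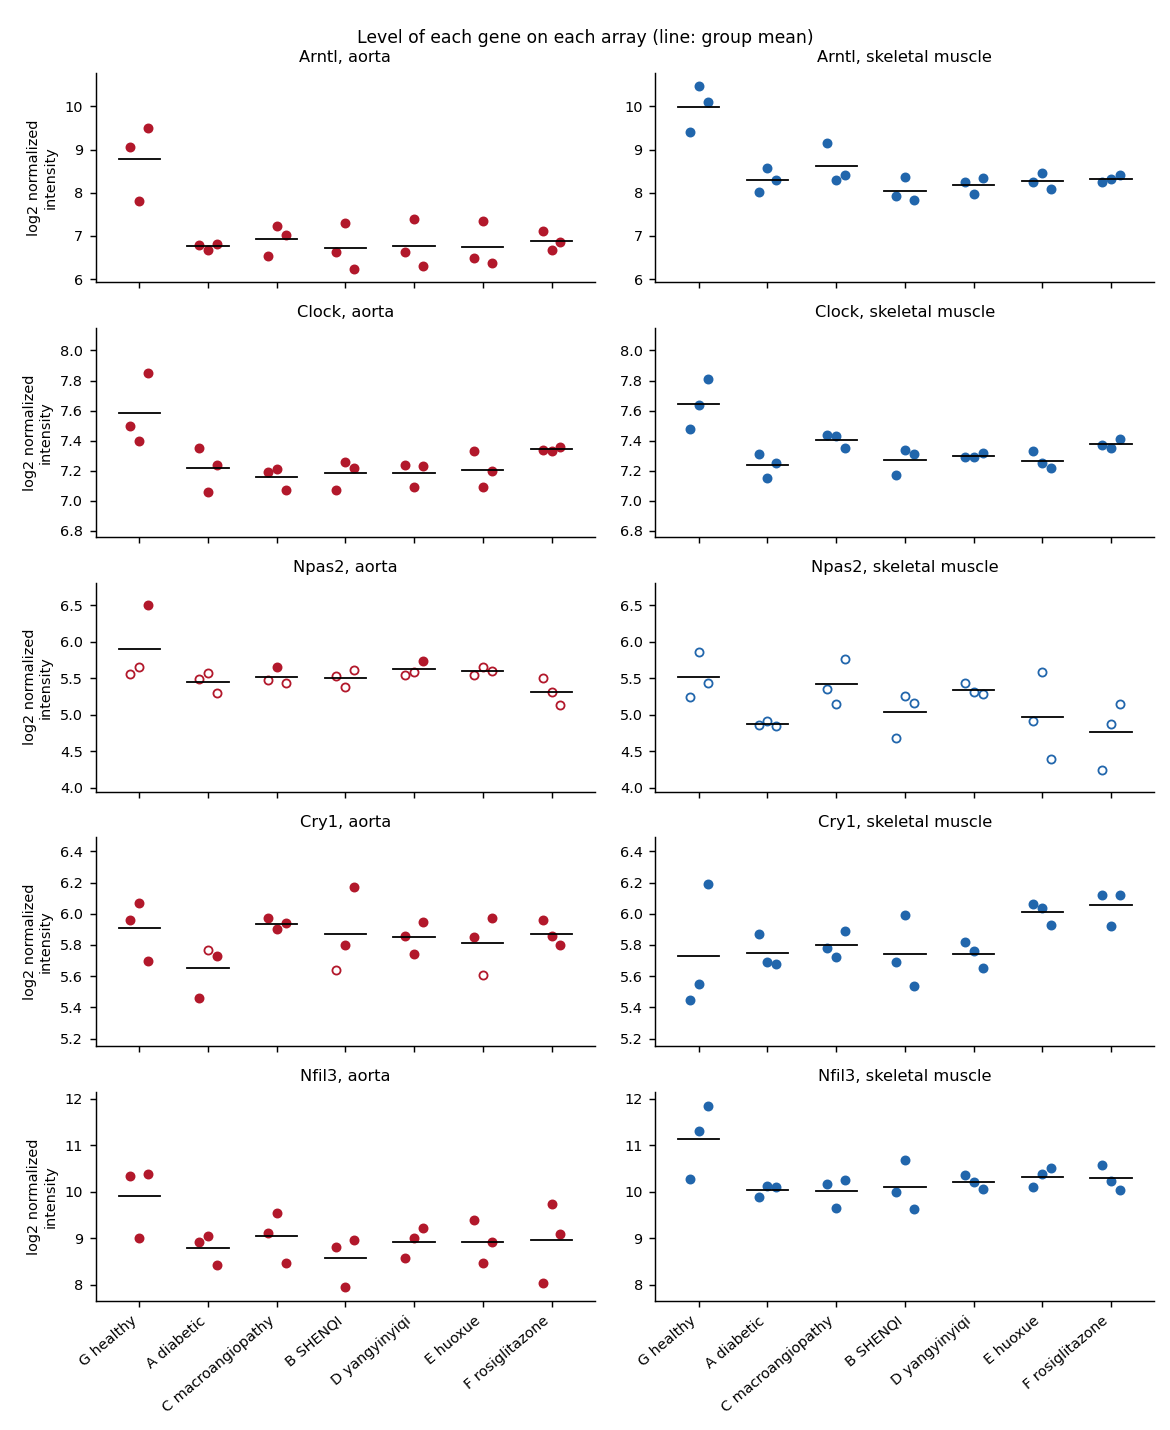
Log2 normalized intensity of the 5 genes on each array (points, 3 arrays per group and tissue) with the group mean (line). Open points are arrays on which no probe of the gene was well above background. Arntl and Clock were higher on every healthy array than on any KK/Ay array of the same tissue, from 7.82 against at most 7.40 for Arntl in aorta and from 9.40 against at most 9.16 in skeletal muscle.

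The A vs G comparison asked what differs between diabetic KK/Ay and healthy mice. Arntl fell by 1.86 on the log2 scale over both tissues (SE 0.27, 3.63-fold, limma adjusted p = 0.00263). The difference was -2.02 in aorta (SE 0.39, adjusted p = 0.0258) and -1.69 in skeletal muscle (SE 0.39, adjusted p = 0.0657). The tissue term of the difference was -0.33 (SE 0.55, adjusted p = 0.966), so the missed threshold in muscle does not set the tissues apart. Arntl was the 1 member called of the 4 that could be tested, at an adjusted p below 0.05 that 4.49% of the 14842 genes tested passed (2.22% in aorta and 1.44% in skeletal muscle).

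Nfil3, the repressor that competes at D-boxes, was 10.33, 9.01 and 10.37 in healthy aorta and 8.92, 9.05 and 8.43 in diabetic aorta, where the groups overlapped by the second healthy array. In skeletal muscle it was 10.27, 11.30 and 11.84 against 9.89, 10.13 and 10.11, without overlap. The difference was -1.10 over both tissues (SE 0.29, limma unadjusted p = 0.00246), which missed the threshold after adjustment (adjusted p = 0.0524). Both probes of Nfil3 gave nearly equal differences, -1.06 and -1.15 in aorta and -1.05 and -1.13 in skeletal muscle.

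Clock, which encodes the main partner of BMAL1, was 7.50, 7.40 and 7.85 in healthy aorta and 7.35, 7.06 and 7.24 in diabetic aorta. In muscle it was 7.48, 7.64 and 7.81 against 7.31, 7.15 and 7.25. The groups did not overlap in either tissue, but the difference was small, -0.39 over both tissues (SE 0.11, unadjusted p = 0.00488, adjusted p = 0.0745). All 4 Clock probes were lower in diabetic mice in both tissues, by -0.30 to -0.49 each. Lower arrays without overlap in both tissues were seen for Arntl and Clock, 2 of the members, and for 3.05% of the genes tested.

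Cry1, the repressor that is both an E-box and a ROR target, did not pass at either threshold. Its level was 5.96, 6.07 and 5.70 in healthy aorta and 5.46, 5.77 and 5.73 in diabetic aorta, a difference of -0.12 over both tissues (SE 0.15, adjusted p = 0.646). Its probes disagreed in aorta, at -0.49 and -0.03, and the second of them was well above background on 13 of 21 aorta arrays and on 1 of 21 muscle arrays. Npas2, the relative of Clock, was well above background on 3 of 21 aorta arrays and on none of the 21 muscle arrays, and was not tested. Its measured levels were 5.13 to 6.51 in aorta and 4.25 to 5.86 in skeletal muscle, of which only the 3 aorta arrays well above background (6.51, 5.65 and 5.74, from groups G, C and D) are more than bounds. At an unadjusted p below 0.05, Arntl, Clock and Nfil3 were lower, 3 of the 4 tested members, where 22% of all genes passed in either direction.

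The C vs G comparison set the macroangiopathy model against the same healthy arrays, so the values repeat the healthy side of A vs G. Arntl was 6.53, 7.24 and 7.03 in aorta and 9.16, 8.30 and 8.42 in skeletal muscle of group C. It fell by 1.61 (SE 0.30, 3.04-fold, limma adjusted p = 0.0141), by 1.85 in aorta (SE 0.43, adjusted p = 0.0339) and by 1.36 in skeletal muscle (SE 0.43, adjusted p = 0.184), again with no overlap of arrays. It was the 1 member called, where 5.17% of 15755 genes passed (6.15% in aorta and 1.56% in skeletal muscle). The first group C muscle array, at 9.16, came close to the lowest healthy array, at 9.40.

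Nfil3 differed by -0.99 (SE 0.32, unadjusted p = 0.00918, adjusted p = 0.091) and Clock by -0.33 (SE 0.11, unadjusted p = 0.00905, adjusted p = 0.0904). Cry1 differed by 0.05 (SE 0.13, adjusted p = 0.852), with one probe at -0.35 and the other at 0.41 in aorta. Below an unadjusted p of 0.05, 3 members were lower, where 24.3% of all genes passed in either direction, and lower arrays without overlap in both tissues were again those of Arntl and Clock, against 3.07% of the genes tested. Among the 4 Clock probes the differences in C vs G ran from -0.65 to 0.03.

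**Figure D2:**
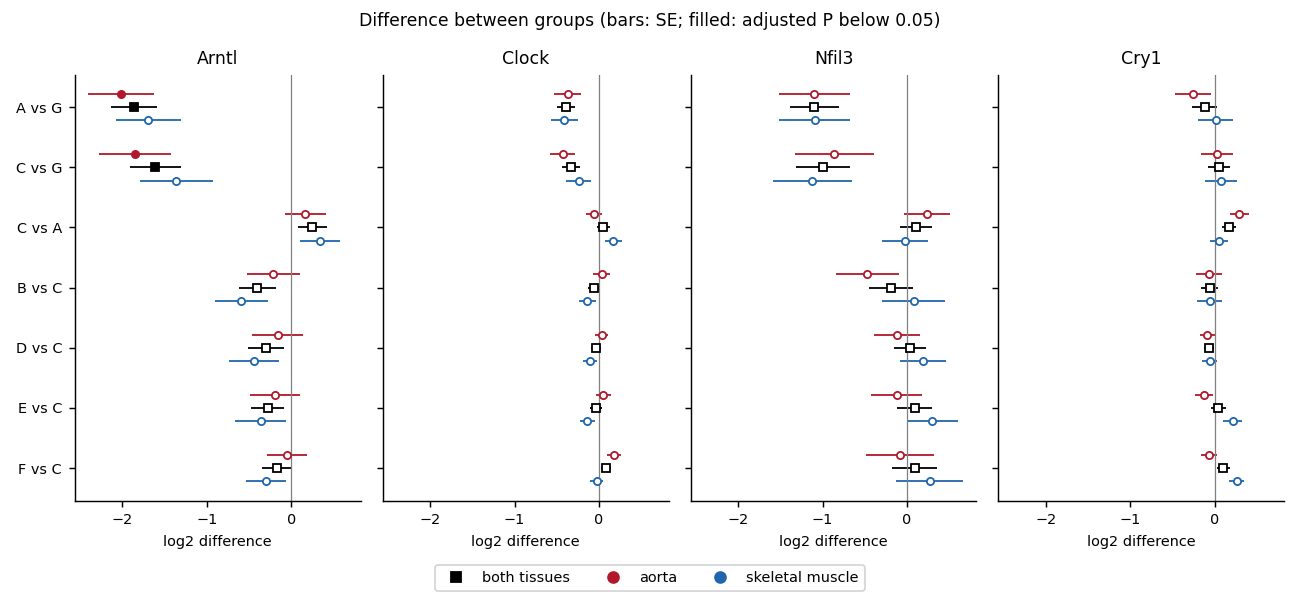
Log2 differences of the 4 tested genes in the 7 comparisons over both tissues (squares) and within each tissue (circles), with their SE. Filled symbols have an adjusted p below 0.05. Arntl in A vs G and C vs G is filled over both tissues and in aorta, at -1.86 and -2.02 and at -1.61 and -1.85, and nothing else is.

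The call of Arntl in A vs G held under each of the 26 alternatives run, with differences from -2.38 to -1.46 and adjusted p up to 0.0222. In C vs G it was lost under 2 of 26, with the arrays of slides 1, 3 and 11 left out (-1.18, adjusted p = 0.0647) and with replicate number as a block (adjusted p = 0.0757). On slide 1, which held 1 diabetic and 2 healthy aorta arrays, the difference was -2.47 for Arntl, -1.43 for Nfil3 and -0.33 for Clock. Without the second healthy aorta array, 3 members passed after adjustment in A vs G (Arntl, Nfil3 at adjusted p = 0.0155 and Clock at 0.0496) and 2 in C vs G (Arntl, and Nfil3 at 0.028). Without the first healthy muscle array, Nfil3 passed beside Arntl in A vs G (adjusted p = 0.0273).

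The probes of a gene are read separately in the plot by probe. The differences of Arntl and of both Nfil3 probes lay on one side in both tissues and both comparisons, whereas those of Cry1 fell on both sides of 0.

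**Figure D3:**
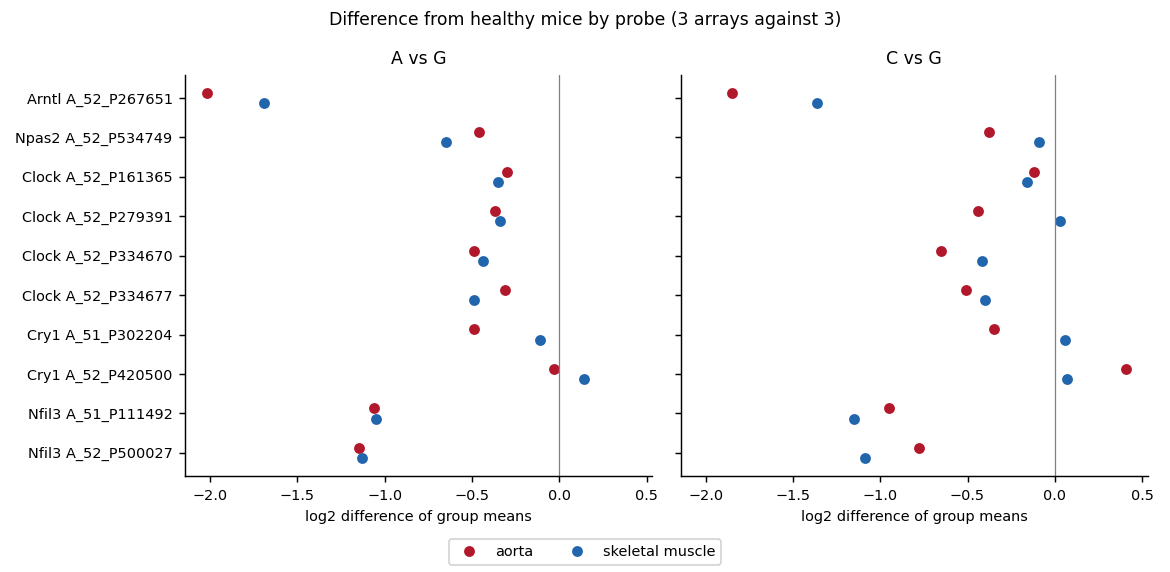
Log2 difference of group means for each of the 10 probes in aorta and in skeletal muscle, 3 arrays against 3, for A vs G and C vs G. The Arntl probe lies farthest from 0, at -2.02 and -1.69 in diabetic mice and at -1.85 and -1.36 in group C, and the second Cry1 probe is at -0.03 and 0.14 and at 0.41 and 0.07.

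The healthy arrays stood apart from the treated groups as well. Over the 18 aorta arrays of the 6 KK/Ay groups Arntl ran from 6.23 to 7.40 with a median of 6.74, below the 3 healthy arrays, and over the 18 muscle arrays from 7.83 to 9.16 with a median of 8.30, again below the 3 healthy arrays. Clock ran from 7.06 to 7.36 in aorta and from 7.15 to 7.44 in muscle of the KK/Ay groups, below healthy values that began at 7.40 and 7.48. Thus 2 of the 5 members had every healthy array above every KK/Ay array in both tissues, a pattern shown by 0.496% of 16121 genes, while the reverse was shown by 0.533% of genes and by no member. This way of counting was chosen after the values were seen.

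Nfil3 overlapped between healthy and KK/Ay arrays in both tissues. In aorta the second healthy array, at 9.01, lay inside the KK/Ay range of 7.95 to 9.74, and in skeletal muscle the first healthy array, at 10.27, lay inside the range of 9.62 to 10.69. The other healthy arrays of Nfil3 were above every KK/Ay array of their tissue. The healthy arrays of Cry1 lay inside the KK/Ay range in aorta, and in skeletal muscle they ran from 5.45 to 6.19 around a KK/Ay range of 5.54 to 6.12.

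Within the KK/Ay groups the order of the group means carried little. For Arntl in aorta the means fell from group C (6.93 ± 0.37) to group B (6.73 ± 0.54), each the mean and SD of 3 arrays, and every group overlapped the next. In skeletal muscle they fell from group C (8.63 ± 0.47) to group B (8.04 ± 0.29), with overlap at each step. Group G was the only group separated from the next in that order, by 1.85 in aorta and 1.36 in skeletal muscle.

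The C vs A comparison asked what feeding fat and giving L-NAME added to KK/Ay mice. None of the 4 tested members passed after adjustment over both tissues, in aorta, in skeletal muscle or in the difference between them, nor at an unadjusted p below 0.05 over both tissues. Arntl differed by 0.25 (SE 0.17, adjusted p = 0.964), Nfil3 by 0.11 (SE 0.19), Clock by 0.05 (SE 0.08) and Cry1 by 0.17 (SE 0.08). Few genes passed at all: 0% over both tissues, 0.0318% in aorta and 0% in skeletal muscle of 15736 genes after adjustment, and 5.12% before it. In aorta Cry1 was 5.97, 5.90 and 5.94 in group C and 5.46, 5.77 and 5.73 in group A, without overlap, with a difference of 0.29 (SE 0.11, unadjusted p = 0.0237, adjusted p = 0.583). Its probes differed by 0.13 and 0.44 there. The share of all genes without overlap within a tissue was not counted.

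The 4 treatments were each set against the same group C arrays. In the mice given SHENQI compound Arntl was 6.64, 7.31 and 6.23 in aorta and 7.93, 8.37 and 7.83 in skeletal muscle. With yangyinyiqi it was 6.62, 7.40 and 6.31 in aorta and 8.25, 7.97 and 8.34 in muscle. These levels overlapped those of group C in both tissues.

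With huoxue Arntl was 6.49, 7.35 and 6.38 in aorta and 8.26, 8.45 and 8.10 in muscle. With rosiglitazone it was 7.12, 6.68 and 6.85 in aorta and 8.26, 8.32 and 8.41 in muscle. All 4 treatment differences had the same sign, away from the healthy level, with -0.40 with SHENQI compound (SE 0.22, adjusted p = 1), -0.30 with yangyinyiqi (SE 0.21, adjusted p = 0.999), -0.28 with huoxue (SE 0.20, adjusted p = 0.577) and -0.17 with rosiglitazone (SE 0.17, adjusted p = 0.724). They share the group C arrays, and none was distinguishable from the spread between arrays. On a shared slide the difference in B vs C was -0.63 in muscle (2 arrays each), and in D vs C it was -0.31 in aorta (1 array against 3) and -0.24 in muscle (3 against 1).

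Clock, Nfil3 and Cry1 were within 0.19 of group C over both tissues under all 4 treatments. In F vs C Clock was 7.34, 7.33 and 7.36 in aorta against 7.19, 7.21 and 7.07 in group C, a difference of 0.18 without overlap (SE 0.08, unadjusted p = 0.0347, adjusted p = 0.389). In skeletal muscle Clock was 7.44, 7.43 and 7.35 in group C and lower without overlap in 3 of the 4 treated groups, 7.17 to 7.34 in group B, 7.29 to 7.32 in group D and 7.22 to 7.33 in group E, with differences of -0.14, -0.11 and -0.14 (adjusted p = 1, 1 and 0.386). Group A was lower than group C there too, at 7.15 to 7.31. In groups B and D all 4 Clock probes were lower than in group C in muscle, whereas in group E they ran from -0.37 to 0.25. These differences share the group C arrays, and the share of all genes without overlap within a tissue was not counted.

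In skeletal muscle Cry1 was 6.06, 6.04 and 5.93 with huoxue and 6.12, 5.92 and 6.12 with rosiglitazone, against 5.78, 5.72 and 5.89 in group C. These groups did not overlap group C, and the differences were 0.21 (SE 0.11, adjusted p = 0.246) and 0.26 (SE 0.09, unadjusted p = 0.0182, adjusted p = 0.162). The Cry1 probes gave 0.41 and 0.01 with huoxue and 0.20 and 0.31 with rosiglitazone. The second of these probes was well above background on 1 of 21 muscle arrays. How many of all genes did not overlap within a tissue was not counted. All 6 of these treated muscle arrays lay on slides 3 and 11, and without the arrays of slides 1, 3 and 11 no treated muscle array was left to compare.

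No tested member passed in the treatment comparisons, over both tissues at either threshold or within a tissue after adjustment. Over both tissues the share of all genes that passed after adjustment was 0% for the 3 herbal treatments and 0.00631% for rosiglitazone, and before adjustment it was 2.71%, 3.42%, 14.3% and 12% for B, D, E and F. After adjustment 0% passed in aorta in all 4, and in skeletal muscle 0% for B and D, 10.6% for E and 3.49% for F. The difference between tissues was not called for any member in any of the 7 comparisons (28 terms, smallest adjusted p = 0.245), where it was called for 0.0741% of genes for A and 0.108% for C against healthy mice, for 3.04% with huoxue, 1.5% with rosiglitazone and 0% in the other 3 comparisons.

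Other genes of the clock were read beside the members from a list of 24 repressors, regulators and outputs, all on the array. In A vs G, 20 of them were tested, and 3 rose after adjustment and none fell: Per2 by 0.68 (SE 0.14, adjusted p = 0.0179), Per3 by 1.35 (SE 0.31, adjusted p = 0.0329) and Bhlhe41, which encodes the repressor DEC2, by 0.74 (SE 0.14, adjusted p = 0.0161). Before adjustment 8 were higher and 1, Per1, was lower at -0.80 (SE 0.22, unadjusted p = 0.00387, adjusted p = 0.0669). Of all genes 4.49% passed after adjustment and 22% before it, in either direction. The median difference was 0.24 over the 20 genes, -0.74 over the 4 members and 0.03 over all genes.

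In C vs G, 22 were tested and the same 3 rose, Per2 by 0.62 (adjusted p = 0.0286), Per3 by 1.04 (adjusted p = 0.0415) and Bhlhe41 by 0.69 (adjusted p = 0.0331), with none lower. Before adjustment 8 were higher and 2 lower. Wee1 is among the 8, and Wee1 and Ciart (Gm129 on the array) are among the 22 and in their median. Both were tested only through the group C aorta arrays, so neither the count nor the median is read as a rise of the list. Of all genes 5.17% passed after adjustment and 24.3% before it, in either direction. The median was 0.28 over the 22 genes, -0.66 over the members and 0.03 over all genes. In aorta alone Hlf and Tspan4 also rose in both comparisons, Hlf, a D-box activator, by 1.73 in A vs G (adjusted p = 0.0359) and 1.37 in C vs G (adjusted p = 0.0476), and Tspan4, a tetraspanin, by 1.33 (adjusted p = 0.021) and 1.09 (adjusted p = 0.00908). There 2.22% of all genes passed in A vs G and 6.15% in C vs G. Wee1, a cell cycle kinase, passed in aorta in C vs G (adjusted p = 0.0178), but 0 of 3 healthy and 3 of 3 group C aorta arrays read it well above background and it was tested only through the latter, so the size of its difference is not given.

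**Figure D4:**
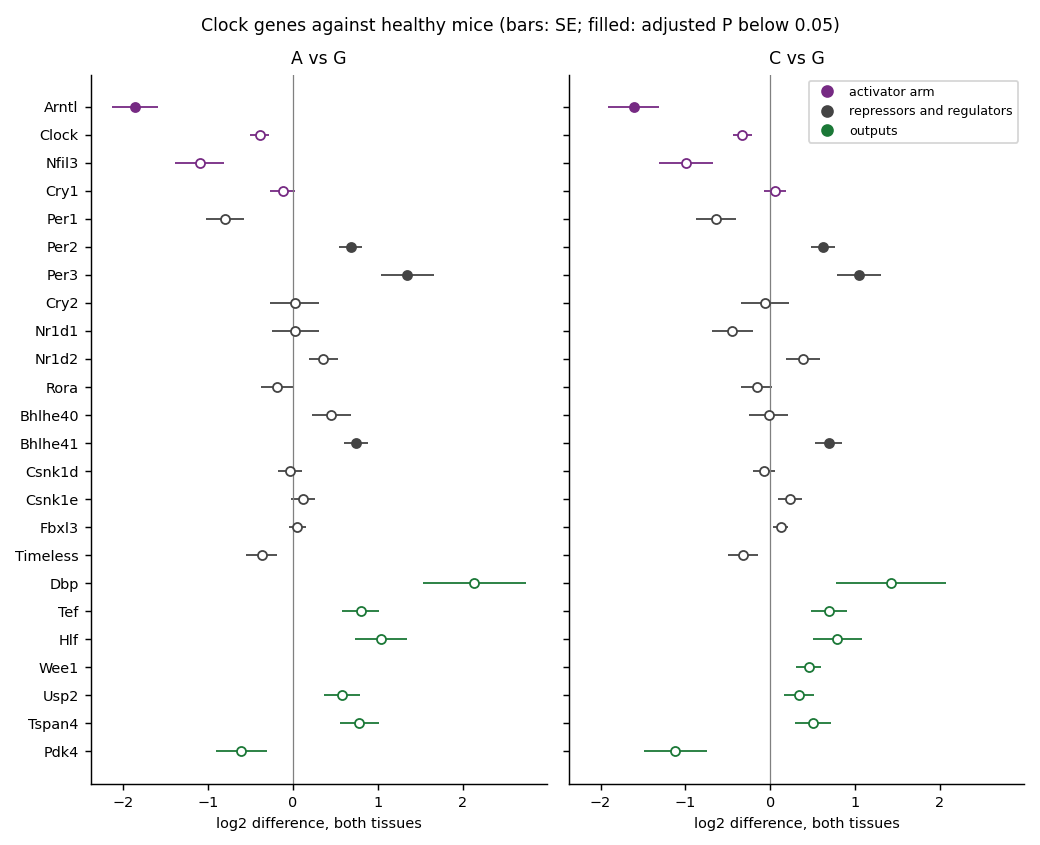
Log2 differences over both tissues, with their SE, for the members and tested genes of the clock list in A vs G and C vs G. Filled symbols have an adjusted p below 0.05. Arntl is filled below 0, at -1.86 and -1.61, and Per2, Per3 and Bhlhe41 are filled above 0, from 0.62 to 1.35.

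Dbp, the D-box activator opposite to Arntl in phase, had wide healthy groups. It was 10.98, 13.88 and 10.47 in healthy aorta against 15.15, 14.35 and 14.93 in diabetic aorta, and 13.38, 13.40 and 11.30 in healthy muscle against 14.39, 13.23 and 14.19 in diabetic muscle. The difference of 2.14 (SE 0.61) missed the threshold after adjustment (adjusted p = 0.0721), as did the 1.42 of C vs G (SE 0.65, adjusted p = 0.204). The second healthy aorta array, with the lowest Arntl and Nfil3 of its group, had the highest Dbp, at 13.88, and the highest Per2, at 7.38.

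Nr1d1 and Nr1d2, which encode the REV-ERB repressors, gave no call. In A vs G Nr1d1 differed by 0.03 (SE 0.28, adjusted p = 0.968) and Nr1d2 by 0.36 (SE 0.17, adjusted p = 0.236). In C vs G they differed by -0.45 (SE 0.24) and 0.38 (SE 0.20), and in C vs A Nr1d1 differed by -0.48 (SE 0.16, unadjusted p = 0.0118, adjusted p = 0.926). In the treatment comparisons no gene of the list passed over both tissues after adjustment. Before adjustment none was lower, and 2 were higher with SHENQI compound, 3 with yangyinyiqi, 3 with huoxue and 0 with rosiglitazone. Dbp was among them for the 3 herbal treatments, at 0.74, 0.67 and 0.86 (limma unadjusted p = 0.0443, 0.0222 and 0.0191). With rosiglitazone Dbp differed in the same direction, by 0.61 (SE 0.33, unadjusted p = 0.0939). Group C was itself low: in C vs A Dbp differed by -0.72 (SE 0.30, unadjusted p = 0.0335, adjusted p = 0.958). Per1 was among them with yangyinyiqi, at 0.39 (unadjusted p = 0.0482). So was Per2, at 0.33 with yangyinyiqi (unadjusted p = 0.00542) and at 0.25 with huoxue (unadjusted p = 0.0259). The remaining ones were Tspan4 with SHENQI compound, at 0.33 (unadjusted p = 0.0254), and Hlf with huoxue, at 0.47 (unadjusted p = 0.00285). These share the group C arrays. Of all genes 2.71%, 3.42%, 14.3% and 12% passed before adjustment, in either direction. In skeletal muscle of E vs C, Cry2 rose by 0.41 (adjusted p = 0.0352), Per3 by 0.68 (adjusted p = 0.0432) and Tspan4 by 0.69 (adjusted p = 0.0185), where 10.6% of all genes passed and all 3 huoxue arrays were on slide 11.

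The genes most like Arntl were sought by correlation over the 42 arrays after the mean of each tissue was subtracted, among 11288 genes well above background on every array. The highest were Tgtp1 (r = 0.91), Irgm2 (0.90), Iigp1 (0.86) and Igtp (0.84), all interferon-inducible GTPases, and Tomm22 (0.83), a receptor of the mitochondrial import pore. The lowest were Zfp386 (-0.89), Tef (-0.87), Hp1bp3 (-0.87), Pdxdc1 (-0.87) and Per2 (-0.86). Clock had an r of 0.76, Nfil3 of 0.61, and Per3, Dbp and Hlf of -0.83 each. These values describe the arrays, which share the gap between healthy and KK/Ay mice.

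Over the 36 KK/Ay arrays, after subtraction of each group mean, the list changed. The r fell to 0.66 for Irgm2, 0.59 for Tgtp1 and 0.57 for Iigp1, was 0.73 for Igtp and -0.49 for Tomm22, and was -0.44 for Zfp386 and -0.09 for Hp1bp3. These genes of the clock kept their sign, with -0.76 for Tef, -0.74 for Hlf, -0.72 for Per2 and -0.57 for Dbp and Per3, whereas Per1 went from 0.13 to -0.65. Tef was among the 5 lowest of 11288 genes. Clock, at -0.17, and Nfil3, at -0.24, did not keep their positive sign over the 36 arrays. For Nfil3 the tissues went opposite ways, with an r within groups of -0.49 in aorta and 0.44 in skeletal muscle (18 arrays each). For Clock these were -0.27 and 0.07. These values by tissue were not tested. The lowest 4 were Slc2a8 (-0.78), Cdc42ep4 (-0.77), Bri3 (-0.77) and Sort1 (-0.76), and the highest were Ccl21a, Bend5, 4933437F05Rik and Satb1 at 0.76 each.

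**Figure D5:**
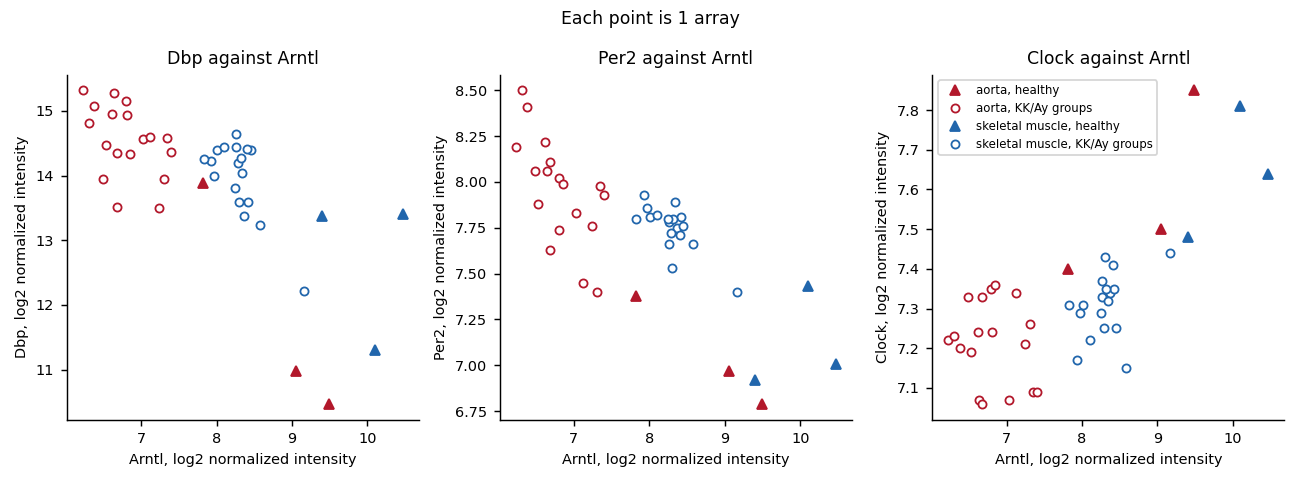
Dbp, Per2 and Clock against Arntl on each of the 42 arrays, all as log2 normalized intensity, with healthy arrays as filled triangles and arrays of the KK/Ay groups as open circles. Healthy arrays lie to the right within each tissue, with Arntl at 7.82 or above in aorta and at 9.40 or above in muscle, and the healthy aorta array with Arntl at 7.82 has Dbp at 13.88.

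Because the healthy arrays lay apart, the members were correlated pair by pair over the 18 KK/Ay arrays of each tissue. Of the 20 correlations (10 pairs in each tissue, permutation tests with 100000 resamples, two-sided) none passed after adjustment. For Arntl and Clock r was -0.18 in aorta (p = 0.463, adjusted p = 0.717) with a Spearman rho of -0.03 (p = 0.91, adjusted p = 0.958), and 0.38 in skeletal muscle (p = 0.125, adjusted p = 0.499) with a rho of 0.34 (p = 0.165, adjusted p = 0.472), all by permutation. Without the 2 arrays farthest from the median of Arntl these r were 0.09 and 0.17. The strongest was that of Cry1 and Nfil3 in skeletal muscle, with r = 0.60 (permutation p = 0.00854, adjusted p = 0.171) and rho = 0.55 (p = 0.0197, adjusted p = 0.385), and r = 0.39 without the 2 farthest arrays.

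The level of a group in aorta was also set against its level in skeletal muscle over the 6 KK/Ay groups. For Arntl r was 0.86 (exact permutation p = 0.00972, adjusted p = 0.0486 over the 5 genes) and rho was 0.83 (exact permutation p = 0.0583, adjusted p = 0.292), and r was 0.50 without the 2 groups farthest from the median, so the relation rests on those groups. The group means of Arntl spanned 0.21 in aorta and 0.58 in skeletal muscle, and neighbouring groups overlapped. For Clock r was 0.21 (exact permutation p = 0.757), for Nfil3 0.23 (exact permutation p = 0.703) and for Cry1 0.17 (exact permutation p = 0.775).

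Within healthy mice the tissues did not differ after adjustment for any member tested (Npas2 was not), where 8.87% of 14156 genes passed. Arntl differed by -1.20, aorta minus muscle (SE 0.49, unadjusted p = 0.0438, adjusted p = 0.188), Nfil3 differed by -1.23 (SE 0.52, adjusted p = 0.207), Clock by -0.06 (SE 0.21) and Cry1 by 0.18 (SE 0.26). Rora, which encodes a receptor that drives the ROR element, differed by -2.30 (SE 0.31, adjusted p = 0.0075). Of the listed outputs, Usp2 differed by -2.41 (SE 0.26, adjusted p = 0.00335), and Tspan4 went the other way, at 0.85 (SE 0.20, adjusted p = 0.049).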

How the data were processed

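The deposited scanner output gives the intensity of each spot (median over its pixels) and of its local background, which the authors read with Agilent Feature Extraction 10.7.3.1 per the file headers. Log2 values that the authors deposited for these arrays served as an alternative. Intensities of 42 arrays were corrected with normexp (offset 0, limma 3.58.1, R 4.3.3), quantile normalized and put on the log2 scale. Control spots were left out, irregular spots were set to missing, and spots and then probes of a symbol were averaged. Genes entered a test if, in some compared set, the 3 arrays all read a probe of theirs well above background. Each comparison was fitted with lmFit and eBayes on 12 arrays with tissue as a term, and within tissues and for their difference with a mean per set. P-values were adjusted by Benjamini-Hochberg over all genes tested, at 0.05. The number of arrays limits the precision. Per the methods each group gave tissue of 3 mice. Whether aorta and muscle came from the same mice is not stated. If they did, the 6 arrays of a group are not independent and p-values over both tissues may be too small. The fit was tested on simulated data.

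Groups came from the sample labels, and healthy mice share no slide with groups C, D and E. The members and lists were chosen with earlier results of these data known. A listed clock gene is counted with its list but not reported here by name. Named genes were the members, Nr1d1, Nr1d2, Per1, Per2, Per3, Dbp, other listed clock genes that passed, and the 5 genes most and the 5 least like Arntl. Alternatives were other background corrections, scalings, filters and probe rules, all 42 arrays in 1 fit, slides as a block, as a batch term or left out, the authors' values, other eBayes options, a replicate block, and each array left out. Correlations over the KK/Ay arrays alone were added after the values were seen. Correlations and plots used Python 3.11.15, numpy 2.4.6, pandas 2.3.3 and matplotlib 3.10.9.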

Additional observations from a re-analysis of the deposited data

Results flagged for a closer look

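No single array could be tested as an outlier, since each group held 3 arrays per tissue. In F vs C the difference of Tspan4, a clock output, differed between the tissues by -1.32 (aorta minus muscle, SE 0.28, limma adjusted p = 0.0477). Tspan4 differed by -0.51 in aorta and by 0.81 in skeletal muscle, and neither passed alone. In the same comparison every rosiglitazone array had less Cry2 than any group C array in aorta (6.92 to 7.04 against 7.20 to 7.38) and more in skeletal muscle (7.77 to 7.90 against 7.48 to 7.69), and the tissue term of -0.49 missed the threshold (SE 0.13, adjusted p = 0.0972). The rosiglitazone muscle arrays lay on slides 3 and 11, which held no group C array, so slide and group cannot be told apart there.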

How the results depend on the processing

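Over 7 comparisons the count of members called after adjustment was within 1.5 times the reported count in 169 of 181 alternatives. The other 12 all belonged to A vs G and C vs G, which had 26 alternatives each. In the remaining 5 comparisons the reported count was 0, so the 1.5-fold rule says little there. In A vs G, 1 member was called, and 2 with the brightest probe, 2 with the stricter filter, 2 with slide as a random block, 3 in the fit of all 42 arrays and 4 in that fit with slides 1, 3 and 11 as a batch term, with 1 to 3 when a replicate was left out. In C vs G, 1 member was called, and 3 in the fit of all 42 arrays, 2 with the batch term, 0 without the arrays of slides 1, 3 and 11, 0 with the replicate block, and 1 to 2 when a replicate was left out. Without those slides 1 healthy array was left in each tissue, assumed to vary like the rest. The replicate numbers did not pair the arrays: in 0 of 14 comparisons and tissues were all 3 correlations of same-numbered deviations above 0.1. With the replicate block Arntl in C vs G stayed at -1.61 with an adjusted p of 0.0757, and 145 genes were called in place of 814. Over all genes A vs G called 666, and 3153 in the fit of all 42 arrays, 2760 with the batch term and 1049 without the second healthy aorta array, and C vs G 3517, 2109 and 1417. In the other 5 comparisons 0 members were called after adjustment under any alternative run. Of the 720 fold changes of members under an alternative, 29 turned sign, none of them called on either side, and the causes were not tested. With the brightest probe Clock became -0.07 in C vs A, 0.01 in group B, 0.01 in group D and 0.02 in group E against group C, and Cry1 -0.15 in C vs G and 0.03 in D vs C. With the batch term Cry1 became -0.21 in C vs G and 0.00 in B vs C, and Nfil3 -0.01 for huoxue and for rosiglitazone. Without the 3 slides Cry1 became -0.26 in C vs G, -0.13 with huoxue and -0.07 with rosiglitazone, Nfil3 -0.12 and -0.08 with these, and Clock 0.05 with huoxue, where both treatments kept aorta arrays only. Cry1 became -0.01 in C vs G with an offset of 50 and -0.01 in E vs C with quantile normalization within tissue. With a replicate left out Nfil3 ran from -0.02 to 0.22 in C vs A, -0.08 to 0.17 in D vs C, -0.02 to 0.23 with huoxue and -0.06 to 0.31 with rosiglitazone, and Cry1 from -0.02 to 0.15 in C vs G.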
